A study of Mus musculus with 18 samples.

Results

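Solute carriers (SLCs) are membrane proteins that move ions, nutrients, metabolites and metals across the plasma membrane or the membranes of organelles, and their gene symbols number families by sequence rather than by substrate. Some exchange one solute for another, some use the sodium or proton gradient, and the large SLC25 family serves the inner membrane of mitochondria. Cultured pluripotent cells import large amounts of amino acids for growth. Neural cells use members of the same families to clear or package transmitters and to hold their ion gradients.

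The members described here were the protein-coding genes of the deposited expression table whose symbol begins with Slc and a digit, without the glucose carriers Slc2a1 and Slc2a3. That gave 157 genes of the 10965 in the table. The mouse annotation (GENCODE M21, GRCm38) holds 369 such symbols, and the others are not analysed here. The authors kept only genes that reached 5 TPM (transcript abundance scaled to gene length and library size) in at least 3 of 18 samples and then removed the 20% least variable, so a carrier that varied little, or was low everywhere, is missing from every count below. In 147 members both genotypes reached 5 TPM in some sample. In 3 (Slc35f1, Slc4a4, Slc8a1) only Ctrl cells reached it, and in 7 (Slc19a3, Slc1a3, Slc2a7, Slc30a3, Slc40a1, Slc5a1, Slc7a9) only Zeb2 KO cells did. These 10 passed through the group in which they were high, so their difference is partly set by the filter.

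The study followed mouse embryonic stem cells (ESCs) of CD1 strain that carried either the unrecombined Zeb2 fl/fl alleles (Ctrl) or no functional Zeb2 (Zeb2 -/-, KO) through neural differentiation (ND). Cells were sampled in ground-state medium (2i and LIF) on d0, as embryoid bodies after 4 days in medium with 15% serum on d4, and after 2 further days in N2B27 with 500 nM retinoic acid on d6. KO lines were made by transient Cre in fl/fl lines, a second derivation from another cross is also described, and which clones were sequenced is not given in the sources used here, so a difference between lines and an effect of Zeb2 cannot be told apart. Each of the 6 groups holds 3 samples, called independent experiments by the study. Ctrl cells at d6 carried 7.53 to 7.81 TPM of Zeb2 and KO cells 0.594 to 0.733. Reads recovered from the TPM values gave 9622622 to 15617675 reads on genes per sample. Summed over 10 pluripotency markers, KO samples held 4115.5 to 4517.9 TPM at d6 against 931.4 to 1042.6 in Ctrl, and summed over 13 neural markers 129.38 to 183.68 against 617.03 to 744.4. The part that these markers play in the carrier differences was not tested. In these bulk samples fewer cells of a type and less RNA per cell cannot be told apart.

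Differences were tested with limma on log2(TPM + 1) over all 10965 genes, and a gene was called where its p, adjusted by Benjamini-Hochberg over all genes, was under 0.01. Fold changes below are log2 differences on that scale ± standard error (SE), which understate the change of low genes. TPM is a level per transcript length.

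The summed level of the carriers stayed between 7027 and 8261.1 TPM in the group means. In Ctrl cells it was 7949.2 ± 153.3 TPM (SD, n = 3) on d0, 8261.1 ± 117.9 on d4 and 7027 ± 33.95 on d6. In KO cells it was 8182.7 ± 197.9, 8003.5 ± 236.7 and 7478.6 ± 53.53. The median member had a mean level of 22.4 TPM against 30.46 for all genes of the table. Only 19 members reached a mean of 100 TPM, 93 lay between 10 and 100 TPM, and 45 lay below 10 TPM.

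By substrate, the members were 29 mitochondrial carriers, 24 amino acid and peptide transporters, 19 carriers of inorganic ions and protons, 18 metal transporters and smaller classes of 5 to 11. Amino acid transporters (2203 TPM) and mitochondrial carriers (2088.1 TPM) had the highest summed levels in Ctrl ESCs. The amino acid class was at 2194.2 ± 43.35 TPM in Ctrl on d4 and at 1513.4 ± 55.02 on d6, while KO cells held 2010.9 ± 84.06 on d6. The carboxylate class went the other way, from 260.37 ± 2.14 TPM on d0 to 391.08 ± 12.17 on d6 in Ctrl, and from 217.91 ± 9.072 to 505.13 ± 38.39 in KO. Nucleotide sugar carriers of the Golgi and endoplasmic reticulum went from 232.74 to 327.71 TPM in Ctrl and from 245.53 to 236.11 in KO. In both genotypes the classes of nucleosides (275.3 to 128.12 TPM in Ctrl, 227.67 to 159.18 in KO) and of neurotransmitters, creatine and osmolytes (356.44 to 161.34 in Ctrl, 370.05 to 181.73 in KO) were lower on d6 than on d0.

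**Figure D1:**
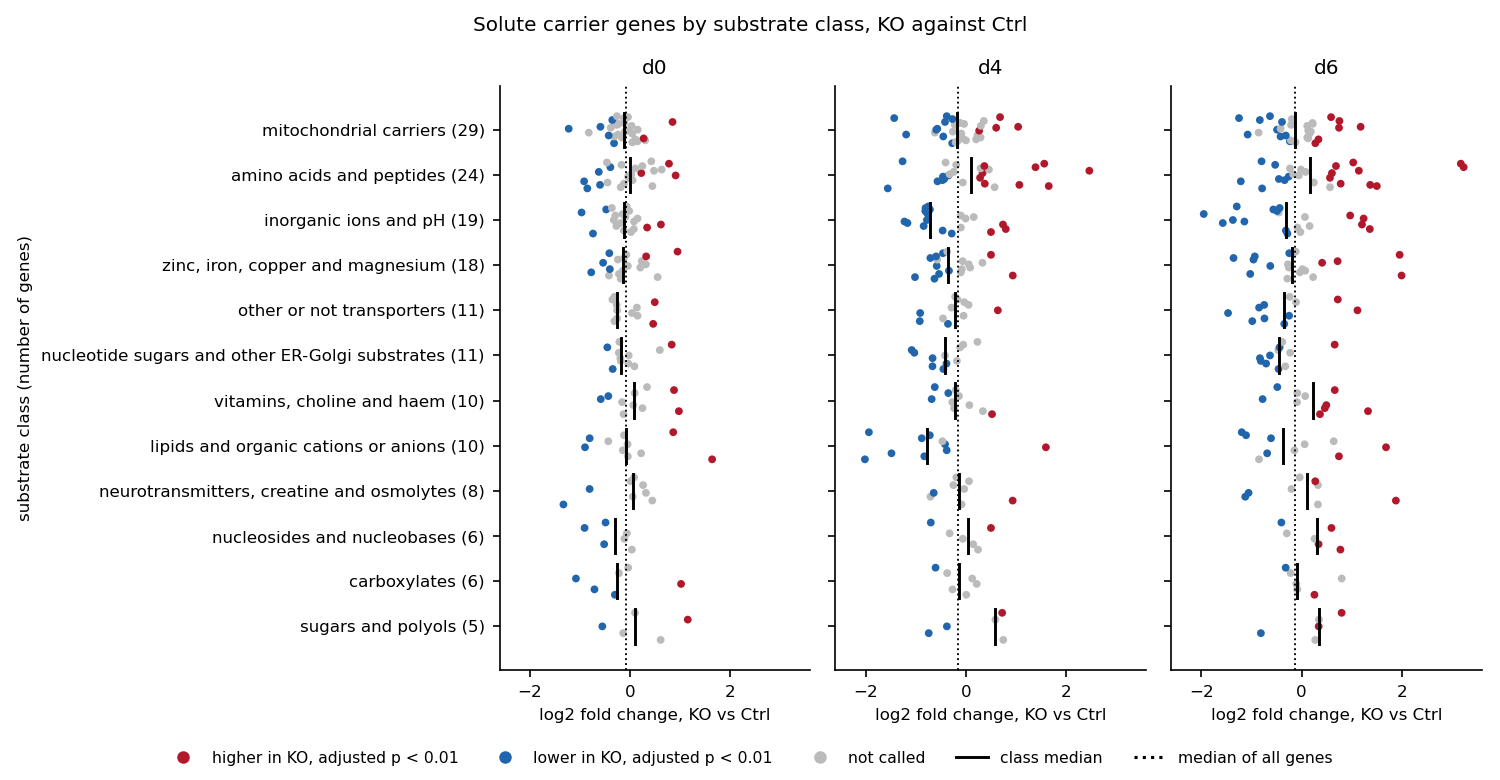
Log2 fold change of each of the 157 members, Zeb2 KO against Ctrl, by substrate class (vertical axis) on d0, d4 and d6 (panels); red (higher) and blue (lower) points passed adjusted p below 0.01, bars mark the class median and the dotted line the median of all genes. The amino acid median lies right of 0 on d4 and d6 (0.1140 and 0.1620), and the medians of inorganic ions (-0.7146 and -0.3149) and nucleotide sugars (-0.4133 and -0.4616) lie left of it.

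Between genotypes the carriers differed on every day, more often lower in KO than higher. On d0, 18 members were higher in KO, where 10.6% of all genes were, and 32 were lower, against 16.4%. On d4, 24 were higher and 61 lower, against 12.7% and 32.7% of all genes. On d6, 42 were higher and 56 lower, against 17.9% and 34.3%. In percent of the members this was 11.5 and 20.4 on d0, 15.3 and 38.9 on d4, and 26.8 and 35.7 on d6, and the gap to the share of all genes was widest for higher members on d6. Changes of more than 1 on the log2 scale were made by 3 higher and 3 lower members on d0, 7 and 12 on d4, and 16 and 15 on d6; for all genes these were 1.61% and 2.76%, 2.13% and 7.58%, and 4.61% and 10.9%.

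The balance of higher and lower calls depended on the scaling. The median log2 fold change of the members was -0.11, -0.23 and -0.12 on d0, d4 and d6, and that of all genes -0.07, -0.16 and -0.14. Rescaling by median ratios brought the median of all genes to 0.0015 on d4 and 0.0140 on d6, and the counts became 34 higher and 42 lower on d4 and 49 and 40 on d6. Quantile normalization gave 20 and 23 on d0, 35 and 34 on d4, and 52 and 37 on d6. With voom the counts were 28 and 28 on d0 and 34 and 48 on d4, and with each chromosome's median removed they were 22 and 23, 35 and 42, and 51 and 38 on the 3 days. Relative to the median of all genes, the members lay at -0.07 on d4 and 0.02 on d6 as deposited, and at -0.08 and 0.01 after median-ratio rescaling.

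Over time most carriers changed, in both directions. In Ctrl cells 68 members rose and 58 fell from d0 to d6, against 45.8% and 25.8% of all genes, and 41 and 30 did so by more than 1 on the log2 scale, against 26.0% and 9.10%. In KO cells 71 rose and 62 fell, against 40.3% and 27.4%, with 45 and 30 past 1, against 21.6% and 9.85%. Most of the early change was made by d4: 65 members rose and 46 fell in Ctrl from d0 to d4, against 45.1% and 22.3%, and 59 and 53 in KO, against 35.8% and 20.9%. Median-ratio rescaling turned the Ctrl counts to 48 and 69, quantile normalization to 44 and 69, and removal of chromosome medians to 51 and 66, and the KO counts to 48 and 61, 47 and 60, and 48 and 64. From d4 to d6, 39 rose and 49 fell in Ctrl, against 22.6% and 21.5%, and 41 and 35 in KO, against 21.5% and 19.9%. The counts of members that rose or fell from d0 to d6, here and in the next paragraph, were not repeated under the other scalings.

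In 103 members the change from d0 to d6 was called in the same direction in both genotypes, 56 up and 47 down, patterns of 31.8% and 17.6% of all genes. The lactate transporter Slc16a3 was among those that rose most in both, by 3.18 ± 0.30 in Ctrl and 5.05 ± 0.30 in KO, and the cationic amino acid transporter Slc7a1 among those that fell, by 2.43 ± 0.11 and 2.77 ± 0.11. A test of the difference in course (an F test on the genotype differences on d4 and d6, each minus that on d0) called 89 members, or 56.7%, where 48.7% of all genes were called. By d6, 43 of them had moved up in KO relative to Ctrl and 46 down, against 20.2% and 28.5% of all genes. Opposite called changes from d0 to d6 were made by 8 members. Slc1a4, Slc25a32, Slc25a33, Slc7a3, Slc35f2 and Slc22a7 fell in Ctrl and rose in KO, a pattern of 1.87% of all genes. Slc25a4 and Slc27a4 rose in Ctrl and fell in KO, a pattern of 2.9%.

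**Figure D2:**
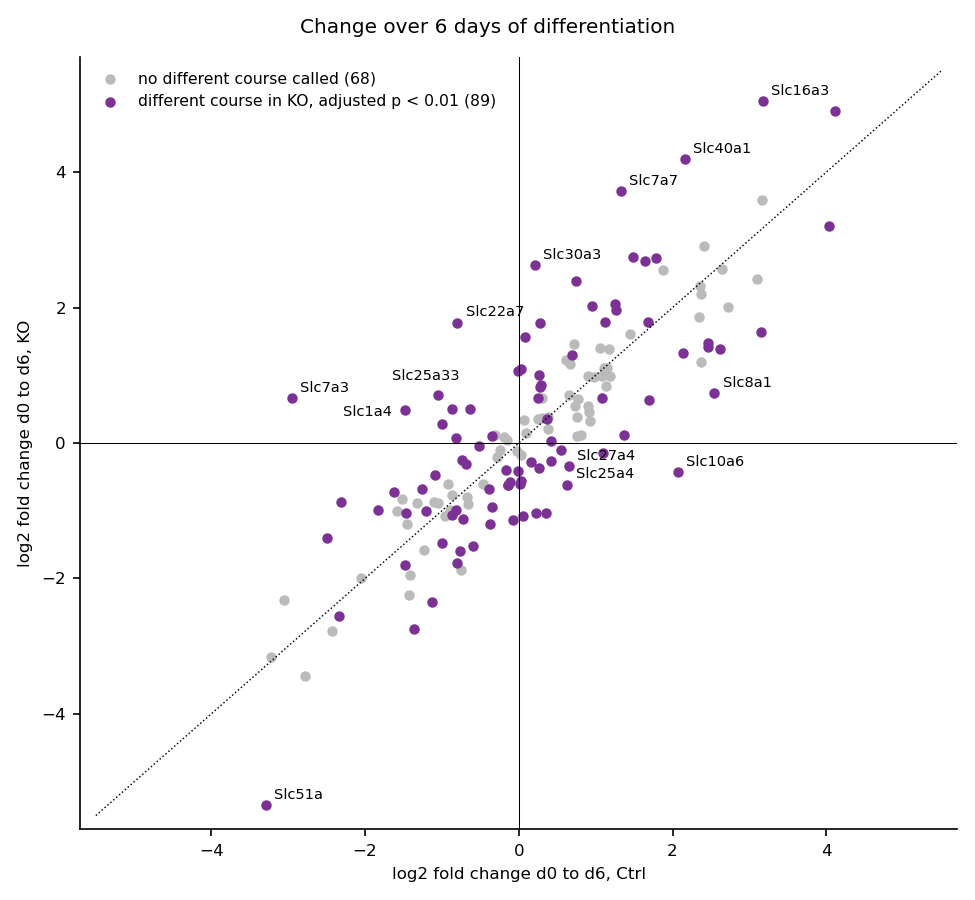
Log2 change from d0 to d6 in Ctrl (horizontal axis) against that in Zeb2 KO (vertical axis) for the 157 members, with the dotted line of equal change; purple points are the 89 members of different course. Slc7a3 (-2.95 in Ctrl, 0.67 in KO) lies far above the line, in the upper left with the other members that fell in Ctrl and rose in KO.

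The largest differences between genotypes on d6 were in transporters of cationic amino acids. Slc7a3, a plasma membrane importer of arginine, lysine and ornithine on chromosome X (101079210 to 101086020, minus strand), fell in Ctrl during ND. In KO it rose by d4, was lower again on d6 and stayed above its level of d0. Ctrl samples held 88.6, 79.6 and 83.8 TPM on d0, 53.8, 54.1 and 53.8 on d4 and 10.9, 8.49 and 10.6 on d6. KO samples held 59.1, 64.9 and 68.0 TPM on d0, 126, 154 and 152 on d4 and 104, 96.4 and 106 on d6. The genotypes did not overlap on any day, and their order turned between d0 and d4. The difference was -0.39 ± 0.09 on d0 (limma adjusted p = 0.00304), 1.39 ± 0.09 on d4 (adjusted p = 5.05e-09) and 3.23 ± 0.09 on d6 (adjusted p = 9.26e-14), where the mean was 10.21 times that of Ctrl. The d0 call was lost without Ctrl replicate 1 (adjusted p = 0.0163), Ctrl replicate 3 (adjusted p = 0.0108) or KO replicate 1 (adjusted p = 0.0184), and with chromosome medians removed (adjusted p = 0.0103).

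Slc7a7, the light chain of an exchanger that releases cationic amino acids in return for neutral ones, rose in both genotypes by d4. It was higher in KO from d0 on, and from d4 to d6 it fell in Ctrl only. Ctrl samples held 4.22, 2.73 and 4.20 TPM on d0, 28.8, 28.7 and 30.1 on d4 and 11.3, 10.6 and 10.1 on d6. KO samples held 7.66, 8.27 and 5.41, then 79.8, 94.5 and 91.7, then 108, 98.0 and 109. All KO samples were above all Ctrl samples of the same day, by 0.78 ± 0.14 on d0 (limma adjusted p = 0.000321), 1.57 ± 0.14 on d4 (adjusted p = 1.54e-07) and 3.18 ± 0.14 on d6 (adjusted p = 1.59e-11).

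Slc7a7 was 1 of 2 members, with the anion exchanger family gene Slc26a10, in which a window of 250 bases before an annotated start held TGATGNAA on either strand. These letters are a core of the sites bound by Atf4 dimers, and genes of the Atf4 response are described further on. The motif was chosen with results of these data known. A gene counted where any of its windows held the letters, and Slc7a7 had 5 windows. Of the 157 members 119 had a promoter in the RefSeq table used (GRCm38.p6), and the 2 were 1.68% of them, against 2.16% of 7221 genes of the expression table and 3.91% of 27025 genes in all. Another Slc7a7 window, chr14:54417703-54417952 (minus strand), held TGATGCAA at base -243, and the bases after its start were found in a GENCODE transcript of the gene. The window chr14:54417945-54418194 (minus strand), of a further start, is shown with the match in capitals, beginning at base -141 from the start. The bases after that start were not found in such a transcript. A match is a description of the letters and not of binding.
Slc7a7 promoter: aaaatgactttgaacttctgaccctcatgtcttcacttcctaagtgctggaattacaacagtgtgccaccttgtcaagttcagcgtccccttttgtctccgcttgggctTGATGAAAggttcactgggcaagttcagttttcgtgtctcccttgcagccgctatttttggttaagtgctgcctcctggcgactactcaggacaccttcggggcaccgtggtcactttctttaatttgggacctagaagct

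**Figure D3:**
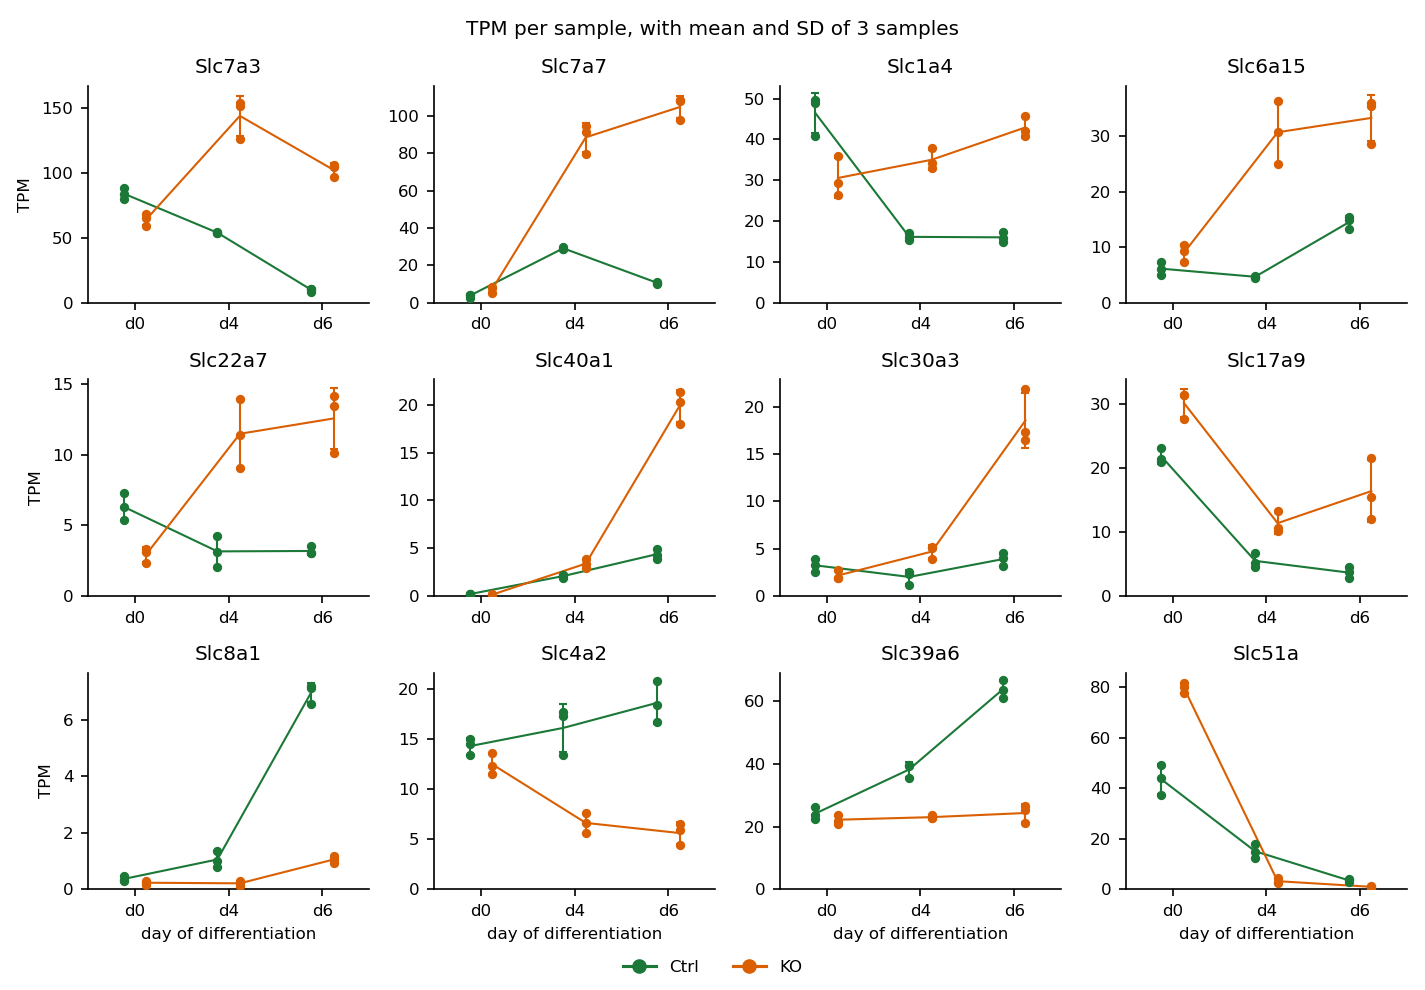
TPM of 12 members in each sample (points), with group means (lines) and SD over 3 samples (bars), in Ctrl (green) and KO (orange) by day of differentiation (horizontal axis), each panel with its own vertical axis from 0. On d6 Slc7a3 and Slc7a7 lie at 96.4 to 109 TPM in KO and at 8.49 to 11.3 TPM in Ctrl, and Slc51a changes its order between d0 and d4.

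Several sodium-coupled transporters of the SLC1 and SLC6 families were also higher in KO on d6. Slc1a4, which exchanges alanine, serine and cysteine, held 40.9, 49.6 and 48.8 TPM in Ctrl and 35.9, 29.4 and 26.3 in KO on d0. On d6 the Ctrl samples held 17.2, 14.9 and 15.9 TPM and the KO samples 45.8, 40.8 and 42.2. The KO samples were thus all lower on d0 (-0.59 ± 0.11, adjusted p = 0.000349) and all higher on d6 (1.37 ± 0.11, adjusted p = 1.54e-08). Slc6a15, a transporter of branched-chain amino acids and proline known from neurons, held 4.52, 4.84 and 4.69 TPM in Ctrl and 25.1, 36.4 and 30.8 in KO on d4. That was a difference of 2.47 ± 0.15 (adjusted p = 2.72e-09), which was 1.14 ± 0.15 (adjusted p = 7.56e-06) on d6, when Ctrl cells were at 14.5 TPM. The glutamine carrier Slc1a5 differed by 0.38 ± 0.09 on d4 (adjusted p = 0.00186) and 0.78 ± 0.09 on d6 (adjusted p = 1.49e-06); the d4 call was lost without Ctrl replicate 1 of d4 (adjusted p = 0.0112). The glutamate transporter Slc1a3, a marker of radial glia and astrocytes in brain, was at 3.99 TPM in Ctrl and 13.1 in KO on d6 (1.50 ± 0.13, adjusted p = 5e-08). Slc1a3 reached 5 TPM only in KO cells, so the filter of the authors partly set this difference.

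The heavy and light chains of the leucine exchanger fell less in KO than in Ctrl. Slc7a5, the light chain, held 149, 151 and 152 TPM in Ctrl and 241, 227 and 262 in KO on d6, with no overlap and a difference of 0.69 ± 0.07 (adjusted p = 7.84e-07). It fell from d0 to d6 by 1.47 ± 0.07 in Ctrl and by 1.03 ± 0.07 in KO. Slc3a2, the heavy chain that carries Slc7a5, Slc7a7 and other light chains to the surface, held 213, 215 and 237 TPM in Ctrl and 355, 331 and 328 in KO on d6 (0.60 ± 0.06, adjusted p = 1.15e-07). Slc38a2, the neutral amino acid importer that is induced when amino acids are scarce, was higher in KO by 0.57 ± 0.07 on d6 (adjusted p = 2.8e-06) and Slc7a8, a further light chain, by 1.03 ± 0.16 (adjusted p = 3.05e-05).

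Not every amino acid transporter followed. Of the 24, 9 were higher and 7 lower in KO on d4, against 12.7% and 32.7% of all genes, and 10 and 7 on d6, against 17.9% and 34.3%. The class medians were 0.11 and 0.16 where all genes had -0.16 and -0.14. On d0 the counts were 3 and 5, against 10.6% and 16.4%. With median-ratio rescaling they were 11 and 5 on both later days. Slc38a4 and Slc38a1, relatives of Slc38a2, also import neutral amino acids with sodium and were lower on d4 (-0.46 ± 0.07, adjusted p = 2.47e-05, and -0.46 ± 0.06, adjusted p = 1.04e-05) and on d6 (-0.26, adjusted p = 0.00247, and -0.34, adjusted p = 0.000147). Both d6 calls were lost with median-ratio rescaling, and that of Slc38a4 also with voom, with chromosome medians removed and without Ctrl replicate 3, KO replicate 2 or KO replicate 3 (adjusted p of at most 0.215 over the alternatives). The peptide transporter Slc15a1 held 46.1, 64.4 and 58.7 TPM in Ctrl and 28.4, 31.7 and 31.8 in KO on d0, and fell to 5.15 and 2.53 TPM by d6; it was lower in KO on each day (-0.85 ± 0.17, -1.56 ± 0.17 and -0.79 ± 0.17). Its d6 call was lost with quantile normalization (adjusted p = 0.118) and voom (adjusted p = 0.032). Slc7a1, which shares its substrates with Slc7a3, went from 91.4 to 16.2 TPM between d0 and d6 in Ctrl and from 98.8 to 13.7 in KO. It differed by 0.11 ± 0.11, 0.30 ± 0.11 and -0.23 ± 0.11 and was not called on any day (adjusted p = 0.458, 0.0274 and 0.0713), while on d4 it passed with voom (adjusted p = 0.000306) and other rescalings.

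**Figure D4:**
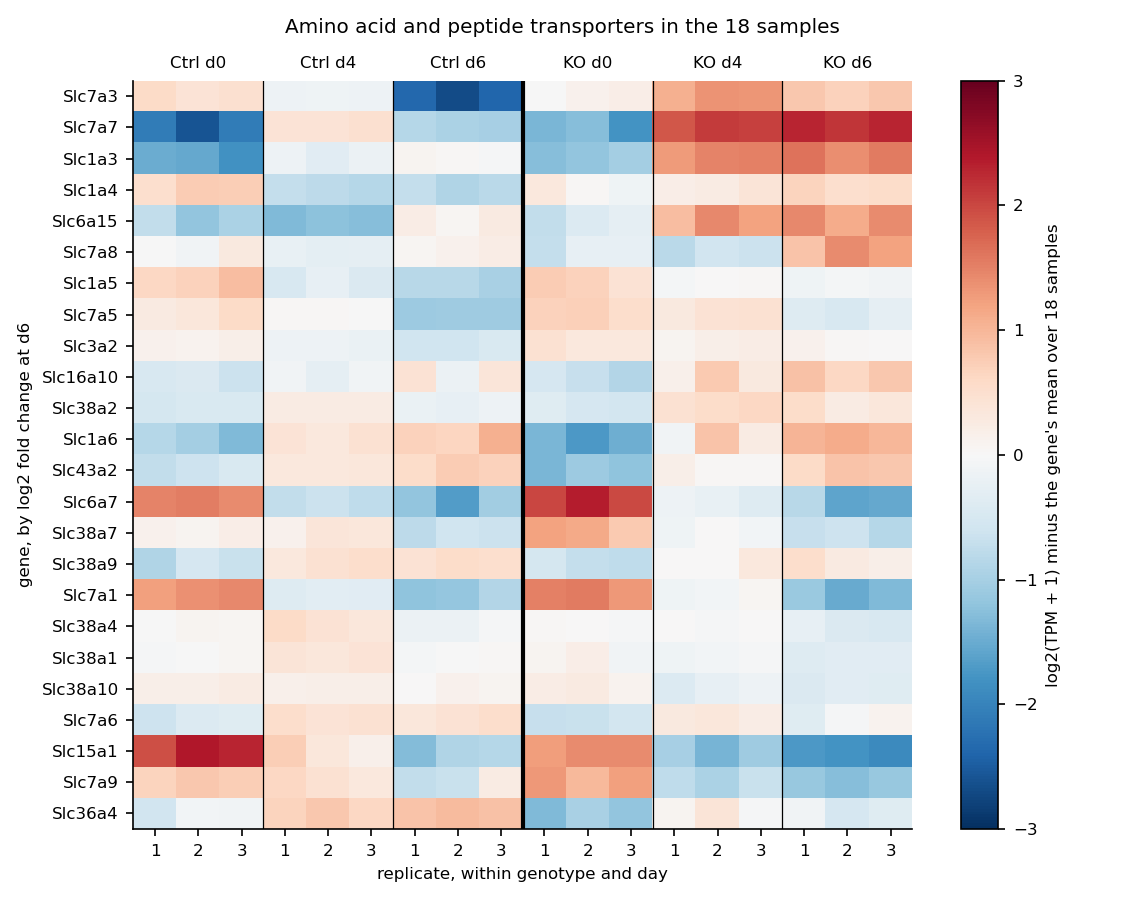
Log2(TPM + 1) of the 24 amino acid and peptide transporters minus each gene's mean over 18 samples (colour scale, red above and blue below the mean), with the samples in columns by genotype, day and replicate and the genes in order of their log2 fold change on d6. At the top Slc7a3 is lowest in the 3 Ctrl samples of d6 and Slc7a7 highest in the KO samples of d4 and d6, and near the bottom Slc15a1 is highest in both genotypes on d0.

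Genes that respond to amino acid supply through the transcription factor Atf4 were listed for comparison, and all 17 of them were in the table. Of these, 10 were higher and 1 lower in KO on d4, where 12.7% and 32.7% of all genes were, and 9 and 2 on d6, against 17.9% and 34.3%, with medians of 0.42 and 0.32. Over time the list mostly fell in both genotypes. From d0 to d6, 12 fell and 1 rose in Ctrl (median -1.24), against 25.8% and 45.8% of all genes. In KO 13 fell and 3 rose (median -0.94), against 27.4% and 40.3%. Atf4 itself differed by 0.37 on d4 (adjusted p = 0.00387) and 0.54 on d6 (adjusted p = 0.000138), the asparagine synthetase Asns by 0.36 (adjusted p = 9.15e-05) and 0.32 (adjusted p = 0.000172), and the pseudokinase Trib3 by 0.89 (adjusted p = 5.3e-05) and 1.30 (adjusted p = 5.46e-07). Atf5 went the other way, by -0.76 (adjusted p = 0.000195) and -1.11 (adjusted p = 2.61e-06). Of 7 genes listed for glutathione synthesis and thiol or peroxide reduction, 5 were higher (Gclm, Gclc, Gsr, Gpx4 and Txnrd1) and none lower on d6; Gclm, the modifier subunit of the enzyme that joins glutamate and cysteine, was at 33.19 ± 0.841 TPM in Ctrl and 164.7 ± 12.7 in KO (2.27, adjusted p = 2.22e-13). These lists were written with results of these data known.

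Among the mitochondrial carriers, the adenine nucleotide translocases, which exchange ADP for ATP across the inner membrane, parted by isoform. Slc25a4, the muscle and heart isoform (chromosome 8, 46206797 to 46211284), had the highest mean level of the class. Ctrl samples held 315, 323 and 334 TPM on d0, 797, 749 and 716 on d4 and 504, 524 and 482 on d6. KO samples held 581, 581 and 597 on d0, 593, 556 and 548 on d4 and 341, 392 and 420 on d6. KO was above Ctrl in all samples on d0 (0.85 ± 0.07, adjusted p = 1.22e-07) and below it in all samples on d4 (-0.41 ± 0.07, adjusted p = 7.02e-05) and d6 (-0.39 ± 0.07, adjusted p = 8.04e-05). After median-ratio rescaling the later differences were -0.24 (adjusted p = 0.0116) and -0.23 (adjusted p = 0.013) and were not called. Slc25a5, the isoform of dividing cells, held 164, 166 and 154 TPM in Ctrl and 256, 265 and 259 in KO on d4 (0.69 ± 0.08, adjusted p = 1.82e-06), and 0.59 ± 0.08 separated them on d6 (adjusted p = 5.28e-06). Slc25a31, the germ cell isoform, was at 5.72 TPM in Ctrl and 1.88 in KO on d0 (-1.22 ± 0.15, adjusted p = 8.94e-06). The 3 isoforms are alike in sequence, and how reads shared between similar genes were counted is not given in the sources used here.

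Slc25a33, which carries pyrimidine nucleotides into mitochondria, was lower in KO on d0 and higher later. It held 37.3, 44.4 and 41.1 TPM in Ctrl and 30.1, 25.2 and 25.5 in KO on d0, and 18.9, 17.8 and 20.9 against 48.4, 39.8 and 46 on d6. The differences were -0.59 ± 0.10 (adjusted p = 0.000196) and 1.18 ± 0.10 (adjusted p = 3.69e-08). Slc25a32, a carrier described for folate, was at 14 TPM in Ctrl and 24.1 in KO on d6 (0.75 ± 0.11, adjusted p = 3.12e-05). Slc25a40 was at 6.40 and 11.7 (0.75 ± 0.14, adjusted p = 0.000244). The ATP-Mg/phosphate carrier Slc25a24 rose in both genotypes, from 2.20 to 51.7 TPM in Ctrl and from 1.75 to 24.0 in KO, and was lower in KO on d4 (-1.19 ± 0.15, adjusted p = 6.88e-06) and d6 (-1.08 ± 0.15, adjusted p = 1.14e-05). Slc25a47, on chromosome 12, held 11.8 TPM in Ctrl and 4.45 in KO on d6 (-1.25 ± 0.21, adjusted p = 7.52e-05). Over the 29 carriers, 4 were higher and 9 lower on d4, against 12.7% and 32.7% of all genes. On d6, 6 were higher and 9 lower, against 17.9% and 34.3%. Median-ratio rescaling gave 9 and 3 on d4, and 10 and 5 on d6. The class median on d4 lay -0.0017 from the median of all genes as deposited and 0.0051 to 0.0473 from it under median-ratio rescaling, quantile normalization, voom and removal of chromosome medians.

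Zeb2 binds DNA through CACCT boxes, and the letters CACCTG were searched on both strands of the same 250-base windows. They were found in 25 of 119 members (21%), in 19.1% of the genes of the expression table and in 19.4% of all promoters of the reference. Among members higher in KO on d6 they were found in 8 of 27 (29.6%), among those lower in 8 of 45 (17.8%) and among those not called in 9 of 47 (19.1%). The window of Slc25a33 (chr4:149774268-149774517, minus strand) is shown as a member that was higher in KO, with the match at -91. A window of Slc4a4 (chr5:89027716-89027965, plus strand, 1 of its 2 windows), a bicarbonate carrier that was lower in KO, reads CAGGTG at -97, the same box on the other strand. No binding data are used here, and the box is short and common in promoters.
Slc25a33 promoter: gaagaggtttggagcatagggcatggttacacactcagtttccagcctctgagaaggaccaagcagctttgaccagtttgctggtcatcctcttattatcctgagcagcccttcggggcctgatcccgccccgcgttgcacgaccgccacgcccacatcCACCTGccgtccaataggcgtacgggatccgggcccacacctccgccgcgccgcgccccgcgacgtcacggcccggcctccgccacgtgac
Slc4a4 promoter: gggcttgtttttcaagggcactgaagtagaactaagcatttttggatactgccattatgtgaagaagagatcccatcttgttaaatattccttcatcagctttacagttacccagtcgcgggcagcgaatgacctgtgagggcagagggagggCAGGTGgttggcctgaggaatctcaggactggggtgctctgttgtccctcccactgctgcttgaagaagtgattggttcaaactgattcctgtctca

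Carriers of inorganic ions and protons were more often lower than higher in KO. Of 19 members, 3 were higher and 12 lower on d4, with a median of -0.71, where 12.7% and 32.7% of all genes were. On d6, 4 were higher and 10 lower, with a median of -0.31, against 17.9% and 34.3%. On d0 the counts were 2 and 3, against 10.6% and 16.4%. Quantile normalization left 3 higher and 7 lower on d4, with a median of -0.39, and 4 and 8 on d6, with a median of -0.20. The d6 median was -0.15 after median-ratio rescaling and -0.13 with chromosome medians removed. Slc8a1, the sodium-calcium exchanger of excitable cells (chromosome 17, 81373105 to 81738377), was at most 0.489 TPM in any ESC sample and rose in Ctrl. On d6 it held 7.21, 6.57 and 7.12 TPM in Ctrl and 1.18, 1.07 and 0.919 in KO, a difference of -1.95 ± 0.14 (adjusted p = 5.37e-09). Only Ctrl cells reached 5 TPM of Slc8a1, so the filter of the authors partly set this difference. The brain exchanger of the same family, Slc8a2, rose in both genotypes, to 25.1 TPM in Ctrl and 18.2 in KO, and differed on d0 (-0.96 ± 0.18, adjusted p = 0.000436) and d4 (-0.78 ± 0.18, adjusted p = 0.00137). The d0 call was lost with voom (adjusted p = 0.0105) and the d4 call with quantile normalization (adjusted p = 0.0357).

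Most carriers of the SLC4 family move bicarbonate and set intracellular pH, and the family did not move as 1 group. Slc4a2, an anion exchanger, held 16.7, 18.3 and 20.8 TPM in Ctrl and 5.89, 6.51 and 4.46 in KO on d6 (-1.57 ± 0.14, adjusted p = 8.95e-08). Slc4a3 and Slc4a4, both at most 1.32 TPM on average in ESCs, rose in both genotypes and were lower in KO on d6 by 1.14 ± 0.15 (adjusted p = 5.24e-06) and 1.37 ± 0.16 (adjusted p = 2.02e-06). Only Ctrl cells reached 5 TPM of Slc4a4, so the filter of the authors partly set its difference. Slc4a5 and Slc4a11, the latter a family member that does not carry bicarbonate, went the other way and were higher in KO on d6 by 1.24 ± 0.09 (adjusted p = 6.15e-09) and 1.20 ± 0.14 (adjusted p = 1.51e-06). Slc4a7 rose from 23.9 to 66.8 TPM in Ctrl and from 22.5 to 70.3 in KO and was not called between genotypes on any day (adjusted p = 0.608, 0.26 and 0.649).

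The sodium-phosphate cotransporters Slc20a1 and Slc20a2 differed from each other. Slc20a1 held 30.1, 30.3 and 35.6 TPM in Ctrl and 95.8, 83.5 and 72.8 in KO on d6, with no overlap (1.36 ± 0.09, adjusted p = 3.24e-09). Slc20a2, the ion carrier of highest mean level, was higher in KO on d0 only (0.35 ± 0.06, adjusted p = 0.00042), which did not hold with chromosome medians removed (-0.0027, adjusted p = 0.979), and its differences on d4 and d6 were -0.10 ± 0.06 and -0.09 ± 0.06. The sodium-potassium-chloride cotransporter Slc12a2 was at 81.1 TPM in Ctrl and 48.3 in KO on d0 (-0.73 ± 0.05, adjusted p = 4.8e-08), and its smaller differences on d4 and d6 (-0.28 ± 0.05 each) were not called after median-ratio rescaling (adjusted p = 0.102 and 0.0577). Of the sodium pump subunits, which build the gradient these carriers use, 5 of 7 listed were in the table. On d6, 2 were higher in KO and 1 was lower, against 17.9% and 34.3% of all genes. The subunit gene Atp1b1 (1.42, adjusted p = 8.2e-08) was among the higher.

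Among the metal transporters the iron exporter was higher in KO and a zinc importer of high level was lower. Slc40a1, ferroportin, the only known cellular iron exporter (chromosome 1, 45908068 to 45926523), was at 0.198 TPM in Ctrl and 0.142 in KO ESCs. On d6 it held 4.34, 3.89 and 4.91 TPM in Ctrl and 18.0, 20.2 and 21.4 in KO, so that the KO mean was 4.534 times that of Ctrl (1.96 ± 0.12, adjusted p = 1.24e-09). Slc30a3, which loads zinc into synaptic vesicles, held 4.55, 3.16 and 4.00 TPM in Ctrl and 16.5, 21.9 and 17.3 in KO on d6 (1.99 ± 0.20, adjusted p = 3.1e-07). Slc40a1 and Slc30a3 reached 5 TPM only in KO cells, so the filter of the authors partly set these differences. Slc39a6, a zinc importer of the plasma membrane, held 63.7, 61.1 and 66.9 TPM in Ctrl and 21.3, 25.2 and 26.6 in KO, so that it rose in Ctrl by 1.37 ± 0.09 from d0 and was not called in KO (0.12 ± 0.09, adjusted p = 0.205). The genotype difference on d6 was -1.36 ± 0.09 (adjusted p = 1.48e-09).

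Other zinc transporters were divided. The intestinal zinc importer Slc39a4 was at 56.1 TPM in Ctrl and 93.3 in KO on d6 (0.72 ± 0.08, adjusted p = 1.88e-06), while Slc39a1 (-0.63 ± 0.09, adjusted p = 2.54e-05), Slc39a9 (-0.94 ± 0.09, adjusted p = 1.05e-07) and the zinc exporter Slc30a4 (-1.03 ± 0.11, adjusted p = 7.45e-07) were lower. Of the 18 metal carriers, 2 were higher and 8 lower on d4 and 4 and 6 on d6, with medians of -0.35 and -0.18, where 12.7% and 32.7% of all genes were higher and lower on d4 and 17.9% and 34.3% on d6. Quantile normalization gave 4 higher and 6 lower with a median of -0.06 on d4, and 6 and 4 with a median of 0.08 on d6. Median-ratio rescaling gave medians of -0.19 and -0.03. Among 10 genes for iron and zinc handling in the table, 5 were higher and 3 lower on d6. The genes named next do not include the lower ones. The ferritin chains Fth1 (0.90, adjusted p = 1.38e-05) and Ftl1 (0.95, adjusted p = 3.33e-09) and the haem oxygenase Hmox1 (1.00, adjusted p = 2.37e-07), which release or store iron, were higher, and the zinc-binding metallothioneins Mt1 and Mt2 differed by -0.18 (adjusted p = 0.0614) and -0.26 (adjusted p = 0.0286).

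Carriers of lipids and organic ions were the class with the lowest median on d4. Of 10, 1 was higher and 8 were lower in KO on d4, with a median of -0.77, and on d6 the counts were 2 and 4, against 12.7% and 32.7% of all genes on d4 and 17.9% and 34.3% on d6. Quantile normalization gave 5 lower on d4, and 3 higher and 3 lower with a median of -0.02 on d6. Slc51a, one chain of the organic solute transporter for bile acids and steroids, turned its order: Ctrl samples held 49.3, 43.9 and 37.4 TPM on d0, 14.7, 18.0 and 12.5 on d4 and 3.94, 2.93 and 3.81 on d6. KO samples held 80.0, 81.5 and 77.6 on d0, 2.53, 2.83 and 4.37 on d4 and 1.38, 0.537 and 1.12 on d6. It was higher in KO on d0 (0.87 ± 0.19, adjusted p = 0.00154) and lower on d4 (-1.93 ± 0.19, adjusted p = 4e-07) and d6 (-1.20 ± 0.19, adjusted p = 3.62e-05). The d0 call was lost without Ctrl replicate 3 (adjusted p = 0.0107) and with a pseudocount of 0.1 (adjusted p = 0.0142).

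Slc10a6, a carrier of sulfated steroids, held 1.80, 0.937 and 1.79 TPM in Ctrl and 6.17, 4.70 and 10.3 in KO on d0, and 14.1, 17.2 and 18.7 against 4.13, 4.13 and 2.14 on d4. Its differences were 1.64 ± 0.36 (adjusted p = 0.00196) and -2.01 ± 0.36 (adjusted p = 0.000217). The d0 call was lost without Ctrl replicate 2 (adjusted p = 0.0113) or KO replicate 3 (adjusted p = 0.0136). The organic anion transporter Slc22a7 was lower in KO on d0 (-0.89 ± 0.20) and higher on d4 (1.60 ± 0.20, adjusted p = 5.22e-06) and d6 (1.68 ± 0.20, adjusted p = 1.71e-06), where it held 3.51, 3.02 and 3.04 TPM in Ctrl and 14.1, 10.1 and 13.4 in KO. Its d0 call was lost without Ctrl replicate 1 (adjusted p = 0.0108) or KO replicate 2 (adjusted p = 0.0116), and with chromosome medians removed (adjusted p = 0.0219). Of the fatty acid carriers of the SLC27 family, Slc27a3 was lower on all 3 days (-0.80 ± 0.11, -0.88 ± 0.11 and -0.61 ± 0.11) and Slc27a4 on d4 and d6 (-0.72 ± 0.08 and -1.11 ± 0.08).

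The carboxylate class held the lactate and pyruvate transporters. Slc16a1, the ubiquitous form, had the highest level, from 199 to 241 TPM in Ctrl and 162 to 289 in KO. Its differences of -0.30 ± 0.07 on d0 and 0.26 ± 0.07 on d6 (adjusted p = 0.00462 and 0.00686) were lost without any of several libraries, with adjusted p of 0.012 to 0.0224 on d0 and 0.0134 to 0.0448 on d6. On d0 these were Ctrl replicates 1, 2 and 3 and KO replicates 1 and 3, and on d6 Ctrl replicates 1, 2 and 3 and KO replicates 2 and 3. The d0 call of Slc16a1 was also lost with median-ratio rescaling and with chromosome medians removed. Its d6 call was also lost with quantile normalization and without the trend. Slc16a3, the form of glycolytic cells, held 8.66, 9.42 and 12.3 TPM in Ctrl and 7.95, 1.59 and 5.16 in KO on d0 (-1.07 ± 0.30, adjusted p = 0.00939), and 118, 85.0 and 95.7 against 172, 160 and 186 on d6. The d6 samples did not overlap, yet 0.80 ± 0.30 separated the genotypes without passing the threshold (adjusted p = 0.0285). Its d0 call was lost in 23 of 27 alternatives, and on d6 it was called with voom (0.91, adjusted p = 1.52e-05) and without KO replicate 2 of d0 (adjusted p = 0.000464), the sample with 1.59 TPM. The SLC16 chaperone Emb was higher in KO on d6 (1.43, adjusted p = 1.67e-09), and its relatives Bsg and Nptn were lower on d4 (-0.27, adjusted p = 0.00103, and -0.65, adjusted p = 3.13e-06), Nptn also on d6 (-0.77, adjusted p = 2.85e-07).

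Nucleotide sugar carriers bring building blocks of glycans and sulfate donors into the Golgi, and none of the 11 was higher in KO on d4, while 6 were lower. On d6, 1 was higher and 6 were lower, with a median of -0.46. Of all genes 12.7% were higher and 32.7% lower on d4, and 17.9% and 34.3% on d6. Quantile normalization left 2 lower on d4 and 4 on d6, with a d6 median of -0.17. The d6 median of the class was -0.30 after median-ratio rescaling, -0.37 with voom and -0.26 with chromosome medians removed. Slc35b2, which carries the sulfate donor, held 103, 110 and 96.5 TPM in Ctrl and 50.1, 58.2 and 67.2 in KO on d6 (-0.81 ± 0.09, adjusted p = 1.64e-06), and Slc35b3, of the same substrate, 19.8 and 10.9 (-0.83 ± 0.16, adjusted p = 0.000226). The CMP-sialic acid carrier Slc35a1 was lower on all 3 days (-0.34 ± 0.08, -0.45 ± 0.08 and -0.46 ± 0.08). Its d0 call was lost without Ctrl replicate 2 or 3 or KO replicate 1 or 3, with an adjusted p of at most 0.0255 over the alternatives. It was also lost with quantile normalization, voom and removal of chromosome medians. The d4 call of Slc35a1 was lost with quantile normalization (adjusted p = 0.0377). Slc37a1, a sugar phosphate exchanger, was the member of this class that was higher (0.84 ± 0.10 on d0 and 0.66 ± 0.10 on d6).

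Transporters tied to transmitters were few and low. Slc17a9, which loads ATP into vesicles, fell in Ctrl from 21.8 TPM on d0 and held 4.51, 2.75 and 3.71 TPM on d6, against 21.6, 15.5 and 12.1 in KO (1.88 ± 0.19, adjusted p = 2.77e-07). Slc17a7, a vesicular glutamate transporter, was at 5.18 TPM in Ctrl and 1.50 in KO on d0 (-1.32 ± 0.17, adjusted p = 1.59e-05) and at 9.39 and 12 on d6 (0.33 ± 0.17, adjusted p = 0.104). The vesicular monoamine transporter Slc18a2 was at 12.6 and 5.30 TPM on d6 (-1.13 ± 0.22, adjusted p = 0.00032). The taurine transporter Slc6a6 fell from 233 to 84.5 TPM in Ctrl and from 235 to 102 in KO. The creatine transporter Slc6a8 was not called between genotypes on any day, with 32.6 TPM in Ctrl and 31.7 in KO on d6 and adjusted p of 0.418, 0.0486 and 0.688, and it fell from d0 to d6 by 0.96 ± 0.08 and 1.08 ± 0.08.

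Nucleoside carriers were lower in KO in 3 of 6 cases on d0 and higher in none, against 16.4% and 10.6% of all genes. On d6, 3 of 6 were higher and 1 was lower, against 17.9% and 34.3%. The equilibrative carrier Slc29a1 held 126, 112 and 112 TPM in Ctrl and 79.8, 82.0 and 82.7 in KO on d0 (-0.51 ± 0.10, adjusted p = 0.000712), a difference of -0.22 (adjusted p = 0.0822) with chromosome medians removed. On d6 it held 34.6, 31.4 and 29.9 against 48.2, 38.6 and 36 (0.34 ± 0.10, adjusted p = 0.00745), a call lost without Ctrl replicate 2 (adjusted p = 0.0234), Ctrl replicate 3 (adjusted p = 0.0352), KO replicate 1 (adjusted p = 0.0456) or KO replicate 2 (adjusted p = 0.0101). The sodium-coupled carrier Slc28a1 fell from 87.3 TPM to 9.60 in Ctrl and from 89.8 to 17.4 in KO (0.77 ± 0.14 between genotypes on d6, adjusted p = 0.000136). Slc29a4, which also carries monoamines, was lower on d0 (-0.90 ± 0.10, adjusted p = 5.34e-06) and higher on d6 (0.60 ± 0.10, adjusted p = 9.58e-05).

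Vitamin and choline carriers were higher in KO in 5 of 10 cases on d6 and lower in 2, against 17.9% and 34.3% of all genes, with a median of 0.22. The median was -0.0082 over members with a mean of at least 10 TPM, and 0.32 to 0.40 under median-ratio rescaling, quantile normalization, voom and removal of chromosome medians. The thiamine carriers Slc19a2 (0.37 ± 0.07, adjusted p = 0.000326) and Slc19a3 (1.32 ± 0.22, adjusted p = 6.84e-05) were both higher. The proton-coupled folate carrier Slc46a1 was lower on all 3 days (-0.58 ± 0.13, -0.68 ± 0.13 and -0.78 ± 0.13). Its d0 call was lost with quantile normalization and without Ctrl replicate 3 or KO replicate 2 (adjusted p of at most 0.012 over the alternatives). Its d4 call was lost with quantile normalization (adjusted p = 0.0215). The choline carrier Slc44a2, the class member of highest level, was not called on any day (adjusted p = 0.189, 0.0167 and 0.387). Of 5 sugar carriers beside the excluded pair, the sodium-glucose cotransporter Slc5a1 held 3.73, 4.09 and 4.40 TPM in Ctrl and 9.94, 10.6 and 10.4 in KO on d0 (1.16 ± 0.21, adjusted p = 0.000403) and fell to 0.915 and 1.39 TPM by d6. Slc19a3 and Slc5a1 reached 5 TPM only in KO cells, so the filter of the authors partly set their differences. Slc45a4 was lower in KO on d0 and d4 (-0.55 ± 0.07 and -0.38 ± 0.07) and higher on d6 (0.34 ± 0.07, adjusted p = 0.00045).

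Among 11 members of unknown substrate or that are not transporters, Slc9a3r1, a scaffold protein that anchors exchangers at the apical membrane, held 149, 149 and 145 TPM in Ctrl and 203, 249 and 286 in KO on d6 (0.72 ± 0.11, adjusted p = 3.18e-05). The orphan carrier Slc35f2 was higher in KO on d6 (1.11 ± 0.08, adjusted p = 3.29e-09), and its relative Slc35f1 was lower, with 11.3, 9.70 and 8.34 TPM in Ctrl and 2.87, 3.36 and 2.43 in KO (-1.47 ± 0.16, adjusted p = 8.86e-07). Only Ctrl cells reached 5 TPM of Slc35f1, so the filter of the authors partly set its difference. Slc22a17, which binds siderophores, rose in both genotypes and was at 143 TPM in Ctrl and 73.0 in KO on d6 (-0.99 ± 0.18, adjusted p = 0.000139). Slc7a6os, on the strand opposite Slc7a6, was higher in KO on d0 (0.50 ± 0.06, adjusted p = 1.22e-05). It lies on chromosome 8, and with chromosome medians removed the difference was 0.15 (adjusted p = 0.0783). Whether counting used strand is not given in the sources used here, so reads of this pair may not be told apart.

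**Figure D5:**
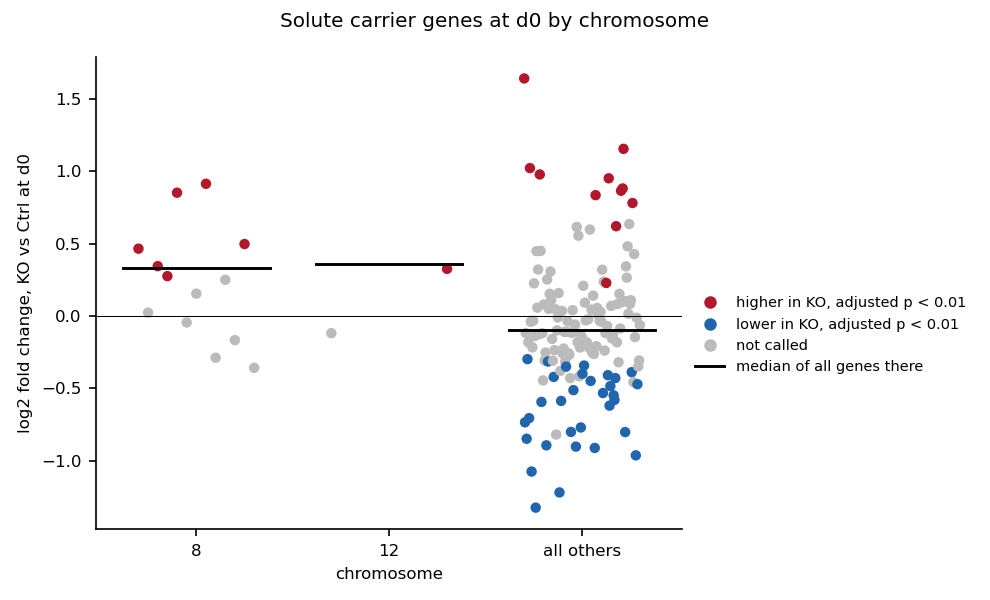
Log2 fold change on d0, Zeb2 KO against Ctrl (vertical axis), of the members on chromosome 8, on chromosome 12 and on all others (points in order of gene name, red and blue where adjusted p was below 0.01), with the median of all genes there (bars). The medians of chromosomes 8 and 12 lie at 0.3317 and 0.3573, above that of all others, and the 6 called members of chromosome 8 lie above 0.

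On d0 the chromosome of a member moved with its call. Of 13 members on chromosome 8, 6 were higher in KO and none was lower, where 48.4% of the 668 genes of that chromosome were higher. Of 2 members on chromosome 12, 1 was higher, where 47.7% of 440 genes were. The other 142 members held 11 higher and 32 lower calls, against 6.33% of genes higher. Shares of lower genes were not computed by chromosome, and 16.4% of all genes of the table were lower. Chromosome 6, counted among the others, had a median of 0.08 on d0. With each chromosome's median removed, chromosome 8 held 2 higher and 4 lower members, where 9.43% of its genes were higher. Slc25a4 (0.51, adjusted p = 8.78e-05) and Slc38a7 (0.57, adjusted p = 0.000256), an amino acid transporter of lysosomes, were the 2 that were still higher. Among members called as deposited, Slc25a15 (-0.07), Slc20a2 (-0.0027) and Slc39a9 (-0.04, on chromosome 12) changed sign. Slc7a5 (-0.10), Slc12a4 (-0.32) and Slc35e1 (-0.19), not called as deposited, also turned from above 0 to below it. No copy number was measured, and its part in these differences was not tested.

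Several members that differed in ESCs differed the other way later. In 10 members a lower call on d0 was followed by a higher call on d6 (Slc25a1, Slc1a4, Slc39a14, Slc29a1, Slc25a33, Slc7a3, Slc16a1, Slc29a4, Slc22a7 and Slc45a4), a pattern of 3.41% of all genes. In 4 members the order was the reverse (Slc25a4, Slc10a7, Slc51a and Slc39a9), a pattern of 3.55%. Leaving out 1 library ended 1 of the paired calls for Slc16a1, Slc29a1, Slc7a3, Slc22a7 and Slc51a, as given with their values, and also for Slc39a14 (highest adjusted p over the alternatives 0.0545 on d0 and 0.0378 on d6) and Slc39a9 (0.77 on d0). The replicate block also ended the d6 call of Slc39a14. For Slc10a7, on chromosome 8, the d0 call was lost with chromosome medians removed (0.12, adjusted p = 0.281), and the d6 call under that setting, median-ratio rescaling, quantile normalization and voom (adjusted p of at most 0.14). The d0 call of Slc25a1 was lost with chromosome medians removed (adjusted p = 0.012). Between d4 and d6 the direction mostly held, with 22 members higher on both days, 43 lower on both, 3 lower and then higher (Slc25a1 and Slc45a4 among them) and none higher and then lower, patterns of 9.25%, 24.4%, 0.757% and 0.146% of all genes. The lower d4 call of Slc25a1 was lost with chromosome medians removed, median-ratio rescaling and voom (adjusted p of at most 0.0839), and that of Slc45a4 with median-ratio rescaling and quantile normalization (at most 0.0771). The citrate carrier Slc25a1, which feeds lipid synthesis, went from -0.31 ± 0.05 on d0 and -0.27 ± 0.05 on d4 to 0.27 ± 0.05 on d6 (adjusted p = 0.000165, 0.000345 and 0.00023).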

How the data were processed

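RNA of 18 samples was sequenced by the authors as single reads of 36 bases. Per the paper's methods and the submitters' processing notes, reads were mapped to GRCm38 with TopHat2 2.0.13 and counted per gene with featureCounts 1.4.6, and the deposited TPM values were computed by the authors from those counts. Genes below 5 TPM, short noncoding genes and the 20% least variable genes had been removed before deposit. The TPM table also holds 3 columns of variability scores of the authors, which were not used.

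From the table, 160 entries matched the member rule and gave 157 genes. Entries for the same gene were tested once. Log2(TPM + 1) of all 10965 genes was fitted with limma 3.58.1 (R 4.3.3), 1 mean per group, with an intensity trend, and p-values were adjusted over all genes by Benjamini-Hochberg. Low TPM steps gave whole reads for 10965 of 10965 genes within a tolerance of 0.001, and these reads were used for depth and for voom. The 27 alternatives were pseudocounts of 0.1 and 5, a mean TPM of at least 10, median-ratio rescaling, quantile normalization, no trend, a replicate block, voom, removal of chromosome medians and 18 fits without 1 sample. Fits were tested on simulated data. Replicates of a group differed by a chi-square per degree of freedom of 4.38 to 24.1, so none was counted as the same library.

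Members described by rule were, for the days together, the called members with the largest change in each direction and no overlap of samples, the member of highest level in each class, and a list of well-known carriers (47 in all); some of these are not reported here. Other members were picked once their values had been seen. The members, substrate classes, companion gene lists and motifs were chosen with earlier results of these data known. Figures were drawn with matplotlib 3.10.9.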

Additional observations from a re-analysis of the deposited data

Results flagged for a closer look

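In 36 members described by rule (47 in all, some not reported here) the course differed between genotypes by the F test (limma, adjusted p below 0.01). Of all genes, 48.7% passed the same test. That test takes d4 and d6 together, so a call can rest on d4 alone. Many of these members were picked for a large genotype difference, so their calls are not independent of the choice. Slc1a3, Slc30a3, Slc40a1, Slc4a4, Slc8a1 and Slc35f1 reached 5 TPM in only a single genotype, so the filter partly set their values. The values are the d0 to d6 change in KO minus that in Ctrl, on the log2 scale.

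Among amino acid transporters this difference in change was 3.62 for Slc7a3, 2.40 for Slc7a7, 1.05 for Slc1a3, 0.90 for Slc1a5, 0.66 for Slc6a15, 0.56 for Slc38a2, 0.43 for Slc7a5, 0.38 for Slc3a2 and -0.23 for Slc38a4. The carrier with the largest value, Slc7a3, fell in Ctrl and rose in KO.

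Among carriers of lipids, organic ions and carboxylates the difference in change was 2.58 for Slc22a7, 1.87 for Slc16a3, 0.55 for Slc16a1, -0.91 for Slc16a9, -2.06 for Slc51a and -2.49 for Slc10a6. For transmitter and nucleoside carriers it was 1.65 for Slc17a7, 1.43 for Slc17a9 and 0.85 for Slc29a1, and for the sugar class 0.89 for Slc45a4.

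Among metal transporters the difference in change was 2.41 for Slc30a3, 2.03 for Slc40a1, 0.48 for Slc39a4 and -1.24 for Slc39a6. Ion carriers gave 0.45 for Slc12a2, -0.43 for Slc20a2, -1.05 for Slc4a4, -1.39 for Slc4a2 and -1.81 for Slc8a1.

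Mitochondrial carriers gave a difference in change of 0.80 for Slc25a31, -0.84 for Slc25a24, -1.13 for Slc25a47 and -1.24 for Slc25a4. Of the remaining members, Slc9a3r1 was at 1.07, Slc7a6os at -0.61, Slc35b2 at -0.63 and Slc35f1 at -1.51. For Slc25a4, Slc20a2, Slc7a6os and Slc7a5, on chromosome 8, and Slc25a47, on chromosome 12, the chromosome medians on d0 lay at 0.3317 and 0.3573; their part in these values was not tested.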

How the results depend on the processing

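Counts of called members moved by over 1.5 times in 6 cases. Voom called 28 members higher in KO on d0 in place of 18. Quantile normalization called 34 lower on d4 in place of 61 and 37 lower on d6 in place of 56. Keeping only genes with a mean of at least 10 TPM, which tests fewer members, left 43 risers of 65 in Ctrl from d0 to d4, 24 of 39 in Ctrl from d4 to d6 and 26 of 41 in KO from d4 to d6. With chromosome medians removed the d0 difference of Slc20a2 turned from 0.35 to -0.0027 (limma adjusted p = 0.979); the cause was not tested.

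Leaving out 1 sample gave 13 to 21 members higher and 22 to 34 lower on d0, 21 to 26 and 52 to 65 on d4, and 38 to 43 and 47 to 56 on d6, with 85 to 95 of different course. Of the calls between genotypes, 22 of 50 on d0, 51 of 85 on d4 and 67 of 98 on d6 were kept in every alternative that could be fitted. Of 141 values of the members named by rule, 116 kept their direction and side of the threshold with chromosome medians removed, 123 with quantile normalization, 125 with median-ratio rescaling and 128 with voom.

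The replicate block gave 17 higher and 32 lower members on d0, 24 and 59 on d4, and 41 and 54 on d6, and changed none of the 141 named values. Deviations of 45 pairs of samples with the same number correlated at -0.093 to 0.336 (median 0.15), with 28 over 0.1, and those of 90 pairs with different numbers had a median of -0.054, with 1 over 0.1. Samples numbered 1, and those numbered 2, thus deviated together, while those numbered 3 did not, and since not every pair was over 0.1 the fit without the block was kept; the data hint at shared experiments, which the labels do not state.

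With 3 samples a group and steps of 1 read near 0, members below about 1 TPM were measured least precisely.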

Other observations

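ABC transporters, which move lipids, drugs and metabolites by hydrolysing ATP, were looked at beside the carriers. Of 19 in the table, 2 were higher and 5 lower in KO on d0, 5 and 6 on d4, and 7 and 5 on d6 (limma, adjusted p below 0.01; of all genes 10.6% and 16.4%, 12.7% and 32.7%, and 17.9% and 34.3%), with a median log2 difference of -0.06 on d6 where all genes had -0.14. Of creatine genes, 3 of 6 listed were in the table, and the mitochondrial creatine kinase gene Ckmt1 was higher in KO on each day (1.21, 1.25 and 1.63). The cytosolic kinase gene Ckb was higher on d0 (0.86) and at -0.33 on d6 (adjusted p = 0.0101), and Gatm, of creatine synthesis, was lower on d0 (-0.93) and not called later, while the creatine importer Slc6a8 was not called.

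Marker lists of other lineages gave the following counts on d6, when 17.9% of all genes were higher and 34.3% lower. Of 11 endoderm markers 10 were lower in KO and none was higher, of 7 mesoderm markers 4 were lower and 1 higher, and of 7 trophectoderm markers 4 were lower and none was higher. None of 7 erythroid markers was in the table.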
